A study of Mus musculus with 12 samples.

Results

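CpG-poor promoters are gene starts that lack a CpG island, the stretch of dense CpG dinucleotides found at most housekeeping genes. They were taken here from mouse genome build mm9 as protein-coding autosomal genes, with 1 transcription start site (TSS) per gene, the 5'-most one annotated. A promoter was CpG-poor when the 1 kb centred on its TSS had a CpG observed/expected ratio below 0.4, and CpG-rich when the ratio was 0.6 or more. Of 21416 promoters, 8469 (39.5%) were CpG-poor and 9951 were CpG-rich. The CpG-poor promoters held a median of 10 CpGs in that 1 kb, at a median ratio of 0.183 and 46.1% GC. The CpG-rich promoters held 72 CpGs, at a median ratio of 0.785 and 61.4% GC.

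The study profiled 6 histone marks (H3K4me3, H3K27ac, H3K4me2, H3K4me1, H3K36me3 and H3K27me3) by chromatin immunoprecipitation and sequencing in C2C12 cells, a myoblast line from the mouse strain C3H, at passages 15 to 18. Myoblasts were collected near confluence in 10% serum, and myotubes about 5 days after serum was withdrawn, when light trypsin was used to remove cells that had not fused. Each mark had 1 library per cell type, so there were 12 libraries, no replicates and no p-values. All differences between cell types compare these libraries, and a change in the mark per cell cannot be told apart from a change in the share of cells that carry it. The libraries held 1858771 to 7033100 uniquely aligned reads. Levels are given as fold over the genome mean of the library, counted 1 kb either side of the TSS, and a promoter is called marked from 5-fold upward. At that level it held 10.8 reads in the myoblast H3K4me3 library and 12.9 in the myotube one, and 7.27 and 18.5 reads in the H3K27ac libraries. A promoter marked by both H3K4me3 and H3K27ac is called active.

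Cell identity was checked on marker genes of any CpG class. All 4 myoblast markers (Ccnd1, Myf5, Myod1 and Vim) were active in myoblasts and 3 in myotubes. Of 7 myotube markers, Myog and Tmem8c were at about 6-fold H3K4me3 in myoblasts and active there, and all 7 were active in myotubes. No marker of hepatocytes (5 genes), blood cells (5), neurons (3) or epithelium (4) was active in either cell type, and their H3K4me3 reached at most 1.84-fold in myoblasts and 4.65-fold in myotubes.

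In vertebrate genomes most CpGs outside islands are methylated and lost over time by deamination, which leaves promoters without an island poor in CpG. CpG-rich promoters recruit the H3K4 methyltransferases through proteins that bind unmethylated CpG, and many are marked in most cell types. CpG-poor promoters depend more on sequence-specific factors and often serve genes of 1 tissue, such as the contractile proteins of muscle, the chemoreceptors of the nose and the keratins of skin. H3K4me3 and H3K27ac lie at active promoters, H3K4me1 and H3K4me2 at promoters and enhancers, H3K27me3 at genes silenced by Polycomb and H3K36me3 over transcribed gene bodies.

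A few sequences show what these promoters look like. Each is the 150 bases before the TSS in mm9, read 5′ to 3′ on the gene's strand, with every CpG in capitals. The first 3 belong to muscle genes whose promoters gained H3K4me3 and H3K27ac: Acta1 (skeletal α-actin, chr8:126418652-126418801, minus strand), Mylpf (fast myosin regulatory light chain, chr7:134354972-134355121, plus strand) and Tnnt3 (fast troponin T, chr7:149684591-149684740, plus strand). Plaur (the urokinase receptor, chr7:25247369-25247518, plus strand) and Col3a1 (a fibrillar collagen chain, chr1:45368233-45368382, plus strand) lost H3K4me3. Lgals1 (galectin 1, chr15:78757005-78757154, plus strand) had the most H3K4me3 of the CpG-poor promoters in myoblasts, and Krt78 (an epithelial keratin, chr15:101784719-101784868, minus strand) the most H3K27me3.
Acta1: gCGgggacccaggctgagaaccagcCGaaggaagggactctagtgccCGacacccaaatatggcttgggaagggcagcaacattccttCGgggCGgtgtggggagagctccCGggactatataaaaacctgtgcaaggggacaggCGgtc
Mylpf: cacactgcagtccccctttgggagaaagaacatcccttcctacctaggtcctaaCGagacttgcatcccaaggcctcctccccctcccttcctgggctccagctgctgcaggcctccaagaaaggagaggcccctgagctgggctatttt
Tnnt3: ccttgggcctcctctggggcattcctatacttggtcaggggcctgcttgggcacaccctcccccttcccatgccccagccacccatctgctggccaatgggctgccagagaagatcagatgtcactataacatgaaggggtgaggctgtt
Plaur: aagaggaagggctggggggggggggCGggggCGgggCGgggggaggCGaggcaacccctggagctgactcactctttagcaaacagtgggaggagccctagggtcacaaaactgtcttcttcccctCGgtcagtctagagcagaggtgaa
Col3a1: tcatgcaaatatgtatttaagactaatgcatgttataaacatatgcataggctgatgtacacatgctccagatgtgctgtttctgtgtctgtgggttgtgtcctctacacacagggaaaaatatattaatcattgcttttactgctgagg
Lgals1: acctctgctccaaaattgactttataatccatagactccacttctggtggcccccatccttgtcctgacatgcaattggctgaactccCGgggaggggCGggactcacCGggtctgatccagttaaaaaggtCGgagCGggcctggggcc
Krt78: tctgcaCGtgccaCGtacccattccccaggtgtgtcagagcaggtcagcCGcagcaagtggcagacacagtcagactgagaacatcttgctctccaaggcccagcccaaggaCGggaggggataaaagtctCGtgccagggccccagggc
Acta1 holds 7 CpGs in this stretch, Plaur, Lgals1 and Krt78 hold 5 each, Mylpf holds 1 and Tnnt3 and Col3a1 hold 0.

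Few CpG-poor promoters were active. In myoblasts 419 (4.95%) were active, against 44.3% of all promoters, and in myotubes 472 (5.57%), against 39.5%. Of the CpG-rich promoters 7910 (79.5%) were active in myoblasts and 7053 (70.9%) in myotubes. Together 597 CpG-poor promoters (7.05%) were active in at least 1 cell type, and 7872 in neither. Activity rose with the CpG ratio across its whole range: 0.536% of promoters with a ratio below 0.1 were active in myoblasts, 12.5% of those from 0.3 to 0.4, and 87.2% of those at 0.9 or more. The corresponding shares in myotubes were 0.804%, 11.4% and 81.2%.

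CpG-poor promoters differed more between the cell types. Of the 597, 294 (49.2%) were active in both, 125 (20.9%) in myoblasts and not in myotubes, and 178 (29.8%) in myotubes and not in myoblasts. Of 8029 CpG-rich promoters active in either, 6934 (86.4%) were active in both, 976 (12.2%) in myoblasts alone and 119 (1.48%) in myotubes alone. The active calls use fold by total reads. On that scale the median myotube to myoblast ratio of H3K27ac was 0.571 at CpG-rich promoters marked in both. Its effect on these shares was not tested. The share active in myotubes and not in myoblasts fell at each step of the ratio up to 0.8, from 50% of the 16 active promoters below a ratio of 0.1 to 18.3% between 0.3 and 0.4 and 1.42% between 0.7 and 0.8. The share active in myoblasts and not in myotubes was 25%, 24.9% and 13.6% in the same bins. With all libraries thinned to the smallest, the myotube share was 30.9% for CpG-poor and 1.52% for CpG-rich promoters, and the myoblast share 21.0% and 13.8%. A CpG-rich TSS lay within 2 kb of 202 CpG-poor promoters, including 97 of the 597. Without those promoters, 332 of 8267 (4.02%) were active in myoblasts and 390 (4.72%) in myotubes, and 33.6% of the 500 active in either were active in myotubes alone.

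**Figure D1:**
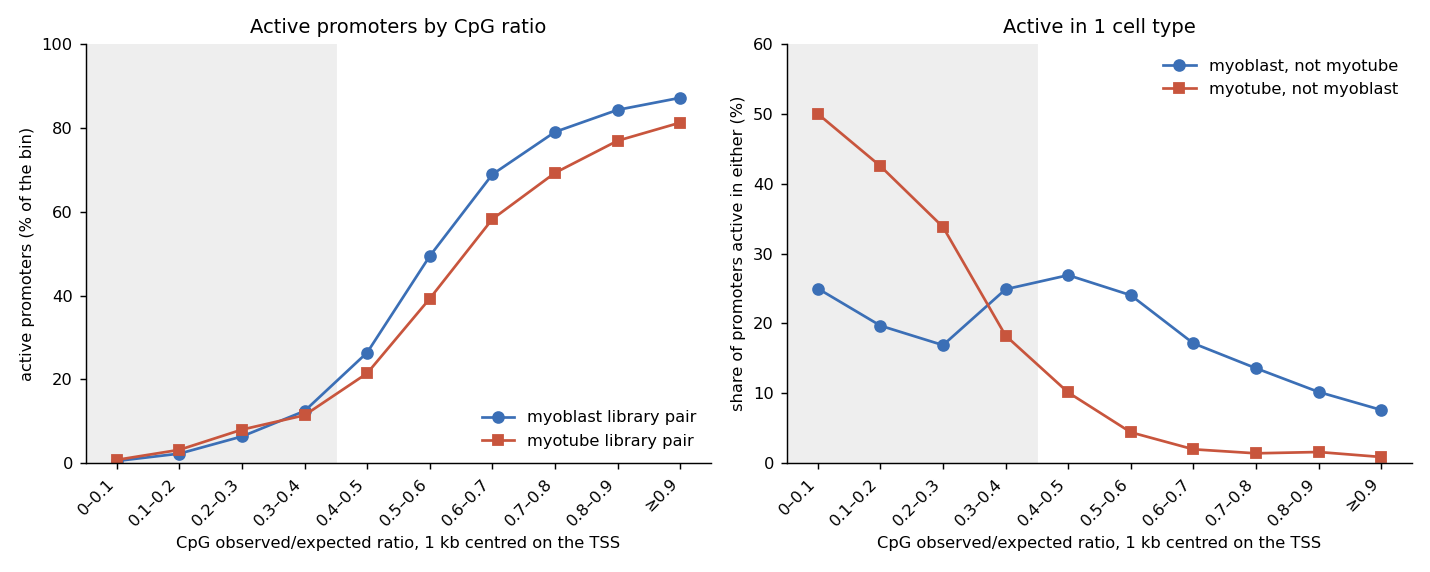
Share of active promoters (percent, left) and share of promoters active in 1 cell type among those active in either (percent, right), by bins of the CpG ratio. Circles are myoblasts, squares myotubes, and the grey band marks CpG-poor bins. The active share climbs from under 1% to over 80%, while the myotube share of the right panel descends from 50% to 0.894%.

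How far a promoter was from active in the other cell type also differed by class. These groups were chosen by H3K4me3 and H3K27ac, so lower levels in the other cell type follow in part from the choice. The 178 CpG-poor promoters active in myotubes alone had a median of 13.2-fold H3K4me3 and 18.9-fold H3K27ac there, and 1.84-fold and 3.44-fold in myoblasts. In 65 of them (36.5%) none of H3K4me1, H3K4me2, H3K4me3 and H3K27ac was marked in myoblasts. The 119 CpG-rich promoters of the same kind had a median of 16.3-fold H3K4me3 in myotubes and still 11.1-fold in myoblasts. Their median H3K27ac was 7.85-fold and 4.13-fold, on either side of the 5-fold limit, and 1 (0.84%) had none of the 4 marks in myoblasts. The 125 CpG-poor promoters active in myoblasts alone fell from 11.1-fold to 4.27-fold H3K4me3, and 12 (9.6%) had none of the 4 marks in myotubes. Most of these kept 1 of the 2 defining marks in myotubes (86, 68.8%), as did 885 (90.7%) of the 976 CpG-rich ones.

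Each mark was found at fewer CpG-poor promoters than at promoters in general, apart from H3K27me3 in myotubes and H3K36me3. H3K4me3 marked 522 CpG-poor promoters in myoblasts and 620 in myotubes, against 48.2% and 47.8% of all promoters. Peaks that the authors called in these libraries covered 86.8% of the 522 and 91.0% of the 620. H3K27ac marked 665 and 684 (all promoters: 46% and 40.8%). H3K4me2 marked 1000 (11.8%) and 842 (9.94%), against 55.9% and 51.9% of all promoters. H3K4me1 marked 940 (11.1%) and 720 (8.50%), against 18.9% and 12.8% of all promoters. H3K27me3 marked 227 (2.68%) and 150 (1.77%), against 4.12% and 1.22% of all promoters. H3K36me3 marked 256 (3.02%) and 287 (3.39%), against 2.33% and 2.29%.

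Where they were active, CpG-poor promoters carried a different set of levels. Their median H3K4me3 was 15.2-fold in myoblasts and 17.1-fold in myotubes, against 35.0-fold and 31.4-fold at active CpG-rich promoters. Their median H3K27ac was 17.9-fold and 19.2-fold, against 28.2-fold and 16.8-fold. H3K4me1 was higher: its median was 7.90-fold and 7.14-fold, against 2.96-fold and 3.26-fold. It was marked at 72.1% and 72.7% of active CpG-poor promoters, and at 23.2% and 19.5% of active CpG-rich ones. H3K36me3 over the gene body (from 2 kb past the TSS) had a median of 4.92-fold and 5.60-fold in genes with active CpG-poor promoters, close to the 4.94-fold and 4.76-fold of active CpG-rich ones. It was 0.469-fold and 0.453-fold in genes whose CpG-poor promoter was not active.

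The marks also lay differently along the DNA. At the 294 CpG-poor promoters active in both cell types, mean H3K4me3 was highest 350 bp past the TSS in myoblasts, at 35.3-fold, and 74.2% of the reads within 1 kb lay downstream. At CpG-rich promoters active in both, the peak was 66.6-fold at 350 bp and 64.8% of the reads lay downstream. In myotubes the peaks were closer, at 43.2-fold for CpG-poor and 49.9-fold for CpG-rich promoters, with 73.7% and 61.2% of the reads downstream. H3K27ac stayed above 50% of its peak over 1400 bp at CpG-poor promoters and 700 bp at CpG-rich ones in myoblasts, and over 1600 and 1000 bp in myotubes. H3K4me1 was 11.7-fold within 100 bp of CpG-poor starts in myoblasts and highest 350 bp upstream (12.4-fold). At CpG-rich starts it dipped to 2.35-fold and was highest 1550 bp downstream, at 5.16-fold.

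**Figure D2:**
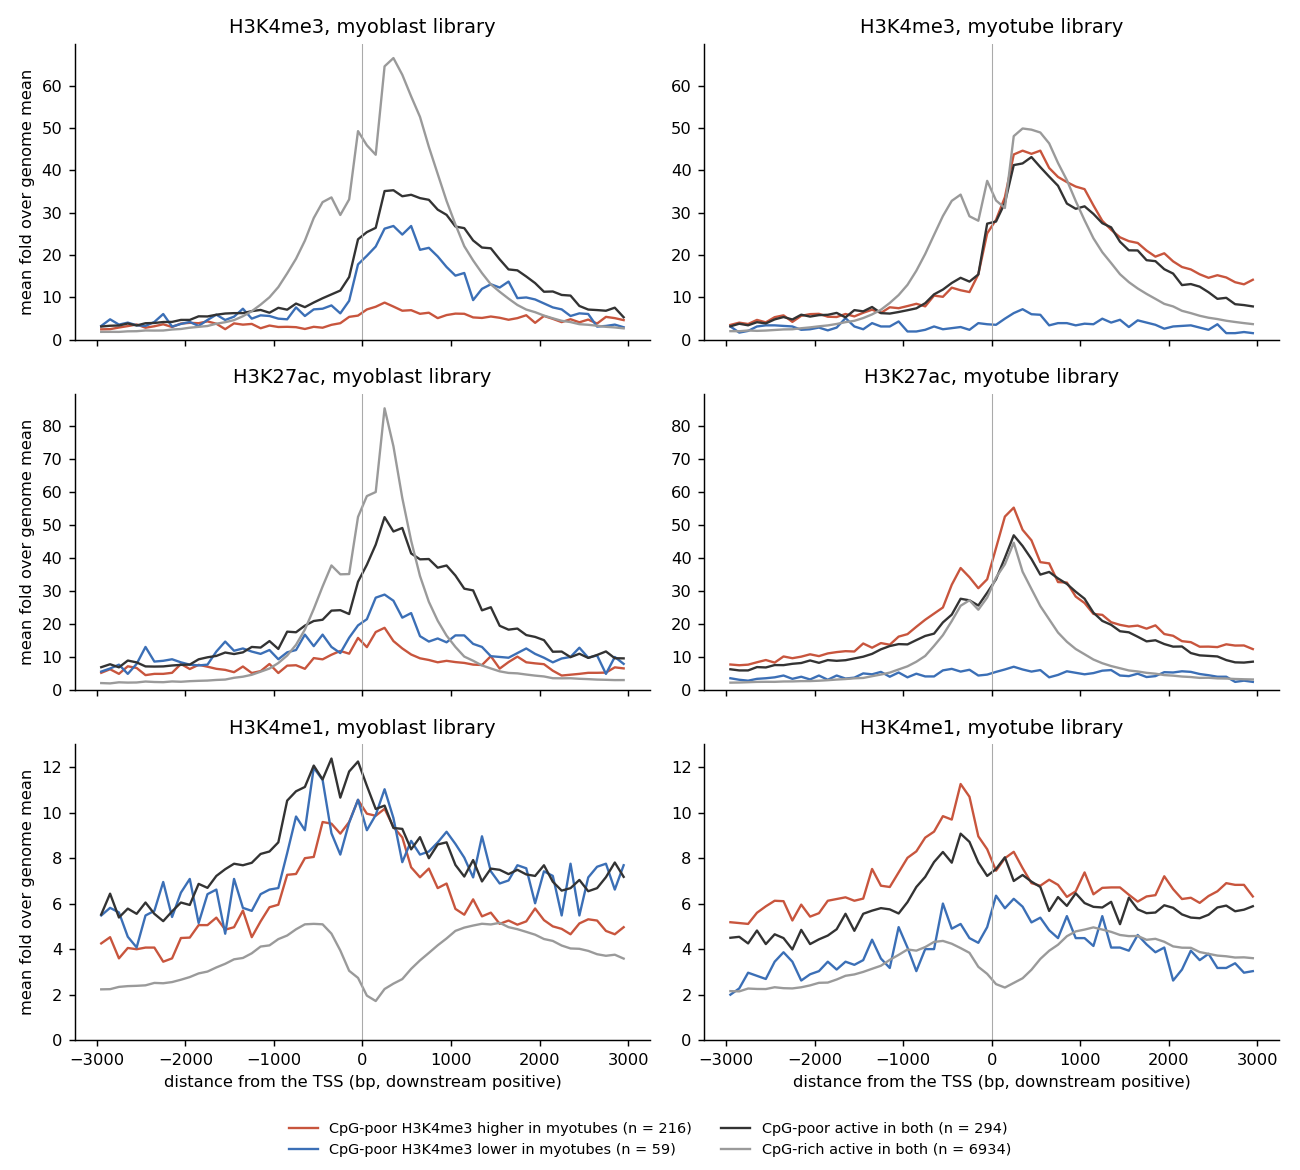
Mean fold over the genome mean (vertical) by distance from the TSS in bp (horizontal, downstream positive, 100 bp bins) for H3K4me3, H3K27ac and H3K4me1 in the 2 cell types. Lines are 216 CpG-poor promoters with higher H3K4me3 in myotubes, 59 with lower, 294 active in both and 6934 CpG-rich ones active in both. H3K4me1 dips at the start of CpG-rich promoters and not at CpG-poor ones. The 216 promoters reach 44.7-fold H3K4me3 in myotubes from 8.80-fold in myoblasts. The 216 and the 59 were chosen by their H3K4me3, so the direction of their H3K4me3 change follows from the choice.

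For changes between the cell types, the ratio of myotube to myoblast reads was set so that its median was 1 at CpG-rich promoters marked in both. By total reads alone that median was 0.841 for H3K4me3 (−0.25 on the log2 scale) and 0.571 for H3K27ac (−0.81). A promoter is called higher from a ratio of 2 and lower from 0.5 down, and 20 reads in both libraries together were needed. Enough H3K4me3 reads were held by 671 of 8469 CpG-poor and 8475 of 9951 CpG-rich promoters. A promoter can pass this filter through the cell type where it is high, so shares of those with enough reads are not shares of a class. H3K4me3 was higher in myotubes at 216 CpG-poor promoters, which is 32.2% of the 671 with enough reads (all promoters: 4.73%). Without the filter as the base, these are 216 of 8469 CpG-poor promoters and 501 of all 21416. It was lower at 59, or 8.79% (all promoters: 4.37%). The 59 depended on how they were counted, with 20 within 500 bp of the TSS, 27 with at least 40 reads, 34 with a CpG ratio below 0.3 and 38 in libraries thinned to the smallest. Of the 8475 CpG-rich promoters with enough reads 170 (2.01%) were higher and 321 (3.79%) lower. H3K27ac was higher at 379 CpG-poor promoters (44.4% of the 854 with enough reads), against 14.1% of all promoters, and lower at 81 (9.48%), against 12.9%. With each whole class as the base, it was higher at 379 of 8469 CpG-poor and 795 of 9951 CpG-rich promoters. By total reads the H3K27ac counts were 254 higher and 208 lower, and those of H3K4me3 185 and 78. With the CpG-rich median set to 1, both marks were higher at 174 and both lower at 23 of 562 CpG-poor promoters with enough reads of each. Of 7930 such CpG-rich promoters, both were higher at 72 and both lower at 161.

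The 216 promoters with higher H3K4me3 were not all bare in myoblasts. H3K4me2 was already marked at 135 (62.5%), H3K4me1 at 124 (57.4%), H3K27ac at 108 (50%) and H3K4me3 at 68 (31.5%). The myoblast shares over all CpG-poor promoters were 11.8%, 11.1%, 7.85% and 6.16%. At the 170 CpG-rich promoters with higher H3K4me3 they were 97.6%, 42.9%, 45.3% and 68.2%. H3K27me3 marked 2 of the 216 in myoblasts (0.926%), against 2.68% of all CpG-poor promoters. In myotubes the median H3K4me3 of the 216 was 18.8-fold, a rise that follows from how they were chosen. Their median H3K27ac was 24.4-fold there, with H3K27ac marked at 194 (89.8%). In myotubes it was marked at 8.08% of all CpG-poor promoters and at 65.9% of the 170 CpG-rich promoters with higher H3K4me3. The myotube to myoblast ratio of H3K36me3 over the gene body was taken by total reads alone. It was above 1 in 160 of the 185 genes with enough reads (median ratio 2.11). In genes of the 59 promoters with lower H3K4me3 the ratio was below 1 in 44 of 50 (median ratio 0.598). At CpG-poor promoters active in both cell types the ratio was above 1 in 142 of 255 (median 1.08). Median H3K4me1 at the 216 promoters was 6.22-fold in myoblasts and 7.65-fold in myotubes, and median H3K27me3 was 0.911-fold and 0.765-fold.

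**Figure D3:**
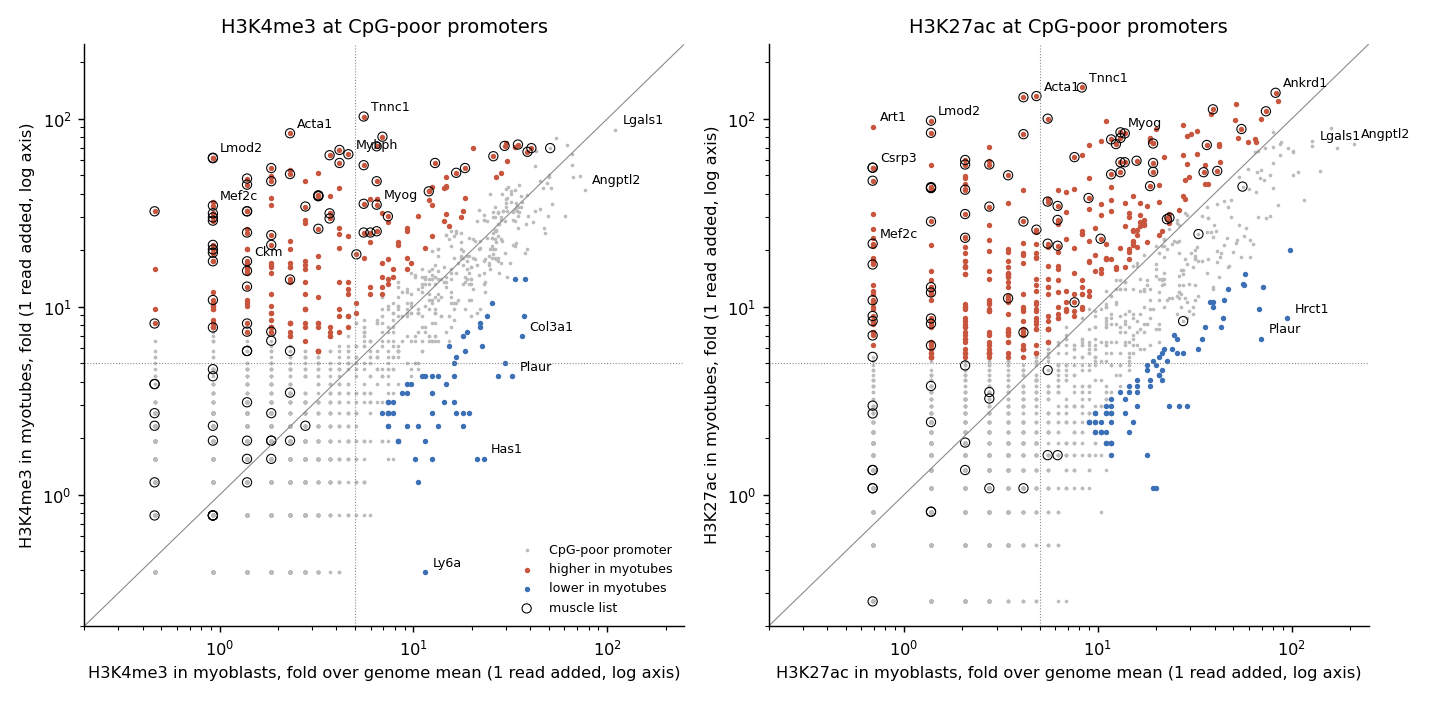
H3K4me3 (left) and H3K27ac (right) at the 8469 CpG-poor promoters, in myoblasts (horizontal) and myotubes (vertical), as fold over the genome mean with 1 read added, on log axes. Red points are higher in myotubes, blue points lower, open circles the muscle gene lists and dotted lines 5-fold. Most of the circled promoters lie above the diagonal, and Lgals1 lies at the upper right, near it.

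Muscle genes were described through 6 lists with 122 symbols, of which 120 were found. Of their 122 promoters 94 (77.0%) were CpG-poor. Of the 94, 20 (21.3%) were active in myoblasts and 68 (72.3%) in myotubes, against 4.95% and 5.57% of all CpG-poor promoters. All 20 stayed active in myotubes. H3K4me3 was higher in myotubes at 64 and lower at 0, where 65 had enough reads (higher at 4.73% of all promoters and 32.2% of CpG-poor ones with enough reads). Reads are summed over both libraries, so a promoter low in myoblasts can enter only through its myotube reads. For such a promoter the call of higher largely follows from the filter, for H3K27ac too. The lists were also chosen with earlier results of these data known. The median H3K4me3 level went from 1.38-fold to 24.4-fold, while the median over all promoters was 3.69-fold and 3.49-fold. H3K27ac was higher at 69 and lower at 0 of 73 (higher at 14.1% of all promoters and 44.4% of CpG-poor ones). By total reads H3K4me3 was higher at 62 and lower at 0, and H3K27ac higher at 59 and lower at 1. The 64 were 29.6% of the 216 CpG-poor promoters with higher H3K4me3, and include 2 entries for Nrap that start 2 bases apart.

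The thin filament list holds actin and its regulators, and 15 of its 18 CpG-poor promoters were active in myotubes against 1 in myoblasts. Acta1, the actin of skeletal muscle, had 4 H3K4me3 reads in the myoblast library and 215 in the myotube one, or 1.84-fold (95% interval 0.503 to 4.72) and 83.4-fold (72.6 to 95.3). Its H3K27ac reads went from 6 to 487, a ratio of 48.0 (25.5 to 153). In myoblasts Acta1 carried H3K27me3 at 5.65-fold (31 reads), and in myotubes at 1.53-fold (6 reads). Tnnc1, slow troponin C, reached the highest H3K4me3 of all CpG-poor promoters in myotubes, at 102-fold from 5.07-fold, and a CpG-rich TSS lies within 2 kb of it. A second gene entry of that name, at another TSS, had 2 H3K4me3 reads in each library.

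Fast troponin genes moved with them. Tnnt3 went from 4 to 130 H3K4me3 reads, or from 1.84-fold to 50.4-fold, with a ratio of 26.2 (12.4 to 121). Tnni2, fast troponin I, went from 1 to 54 reads, and Tnnc2, fast troponin C, from 2 to 114. Tnnt3 and Tnni2 already had H3K27ac in myoblasts, at 11-fold and 11.7-fold, and H3K4me1 at 13.6-fold each. Lmod2, a nucleator of actin filaments, had 1 read of each mark in myoblasts and 159 of H3K4me3 and 360 of H3K27ac in myotubes. Tpm3, a tropomyosin, went from 1.38-fold to 54.3-fold H3K4me3 at its 5'-most TSS, but at the TSS of that gene with the most H3K4me3 reads the ratio was 0.798. Tnni1, slow troponin I, reached 5.43-fold H3K4me3 in myotubes, while its H3K27ac was 26.8-fold in myoblasts and 8.12-fold in myotubes.

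The thick filament list (myosins, their light chains and titin) had 13 of 20 CpG-poor promoters active in myotubes and 1 in myoblasts. Ttn, the giant spring protein titin, was that one: its H3K4me3 was 6.46-fold (14 reads) in myoblasts and 79.9-fold (206 reads) in myotubes. Mylpf went from 8 to 149 H3K4me3 reads, or from 3.69-fold (1.59 to 7.27) to 57.8-fold (48.9 to 67.9), and its H3K27ac ratio was 14.5 (8.46 to 33.5). Mybph, a myosin binding protein, had 38.5-fold H3K27ac and 21.9-fold H3K4me1 in myoblasts but 4.15-fold H3K4me3, and 64.4-fold H3K4me3 in myotubes.

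The myosin heavy chain cluster on chromosome 11 showed its members apart. Embryonic Myh3 had 6 H3K4me3 reads in myoblasts and 100 in myotubes, or 2.77-fold and 38.8-fold, and its H3K27ac went from 0 reads (a count that allows up to 3) to 202. Myh1, a fast adult chain, went from 1 to 80 reads. Fast Myh4 and perinatal Myh8 reached 20 reads each (7.76-fold) from 2 and 0, and extraocular Myh13 had 5 reads in each library. The intervals of Myh1 (24.6 to 38.6) and Myh4 (4.74 to 12) in myotubes do not overlap. Of the cardiac chains on chromosome 14, Myh7 went from 1.84-fold to 13.6-fold H3K4me3 and Myh6 had 1 read in each library.

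At the Z-disc and costamere, 11 of 16 CpG-poor promoters were active in myotubes and 5 in myoblasts. Myoz2, a Z-disc protein that binds calcineurin, went from 2 to 123 H3K4me3 reads (a ratio of 41.3, interval 16.7 to 514). Csrp3, the muscle LIM protein, had 0 H3K27ac reads in myoblasts and 202 in myotubes. Ankrd1, a stretch-responsive ankyrin protein, was active in both cell types: its H3K4me3 was 50.3-fold and 69.4-fold, a ratio of 1.64 (1.29 to 2.10). Ankrd2 was at 99.9-fold H3K27ac in myotubes with 7.37-fold H3K4me3.

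The genes of calcium handling and excitation were, of the 6 lists, the most often active before differentiation, with 8 of 17 CpG-poor promoters active in myoblasts and 13 in myotubes. Cacng1, a subunit of the muscle calcium channel, was at 29.1-fold H3K4me3 in myoblasts and 71.4-fold in myotubes. Jph2, which ties the cell membrane to the sarcoplasmic reticulum, went from 34.1-fold to 72.5-fold. Casq2, a calcium store protein, differed from these, with 1 read in myoblasts and 158 in myotubes. Among the acetylcholine receptor subunits of the muscle endplate, Chrna1 was at 38.3-fold and 66.3-fold, Chrnd at 12.5-fold and 57.8-fold, fetal Chrng at 3.23-fold and 31.0-fold and adult Chrne at 0 and 3.49-fold. Chrna1, Chrnd and Chrng had H3K4me1 of 8.49-fold to 20.9-fold in myoblasts and Chrne had 1.38-fold.

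In energy metabolism 7 of 12 CpG-poor promoters were active in myotubes and 1 in myoblasts. The 1 was Eno3, the muscle enolase, at 40.1-fold H3K4me3 and then 69.4-fold. Ckm, muscle creatine kinase, went from 2 to 44 H3K4me3 reads, or from 0.922-fold to 17.1-fold, and its H3K27ac from 0 to 61 reads. Mb, the oxygen store myoglobin, had 0 and 1 H3K4me3 reads.

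Of the CpG-poor promoters of myogenic regulators, 9 of 11 were active in myotubes and 4 in myoblasts. Myog, the factor that drives terminal differentiation, went from 13 to 89 H3K4me3 reads, or from 6.00-fold (3.19 to 10.3) to 34.5-fold (27.7 to 42.5), and from 12.4-fold to 84.4-fold H3K27ac. Tmem8c, the membrane protein needed for myoblast fusion, went from 6.00-fold to 71.0-fold H3K4me3. Mef2c, a partner of the myogenic factors, had 1 H3K4me3 read in myoblasts and 88 in myotubes. Myod1 itself is intermediate in CpG (ratio 0.481) and was active in both cell types, at 15.7-fold and 20.9-fold.

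**Figure D4:**
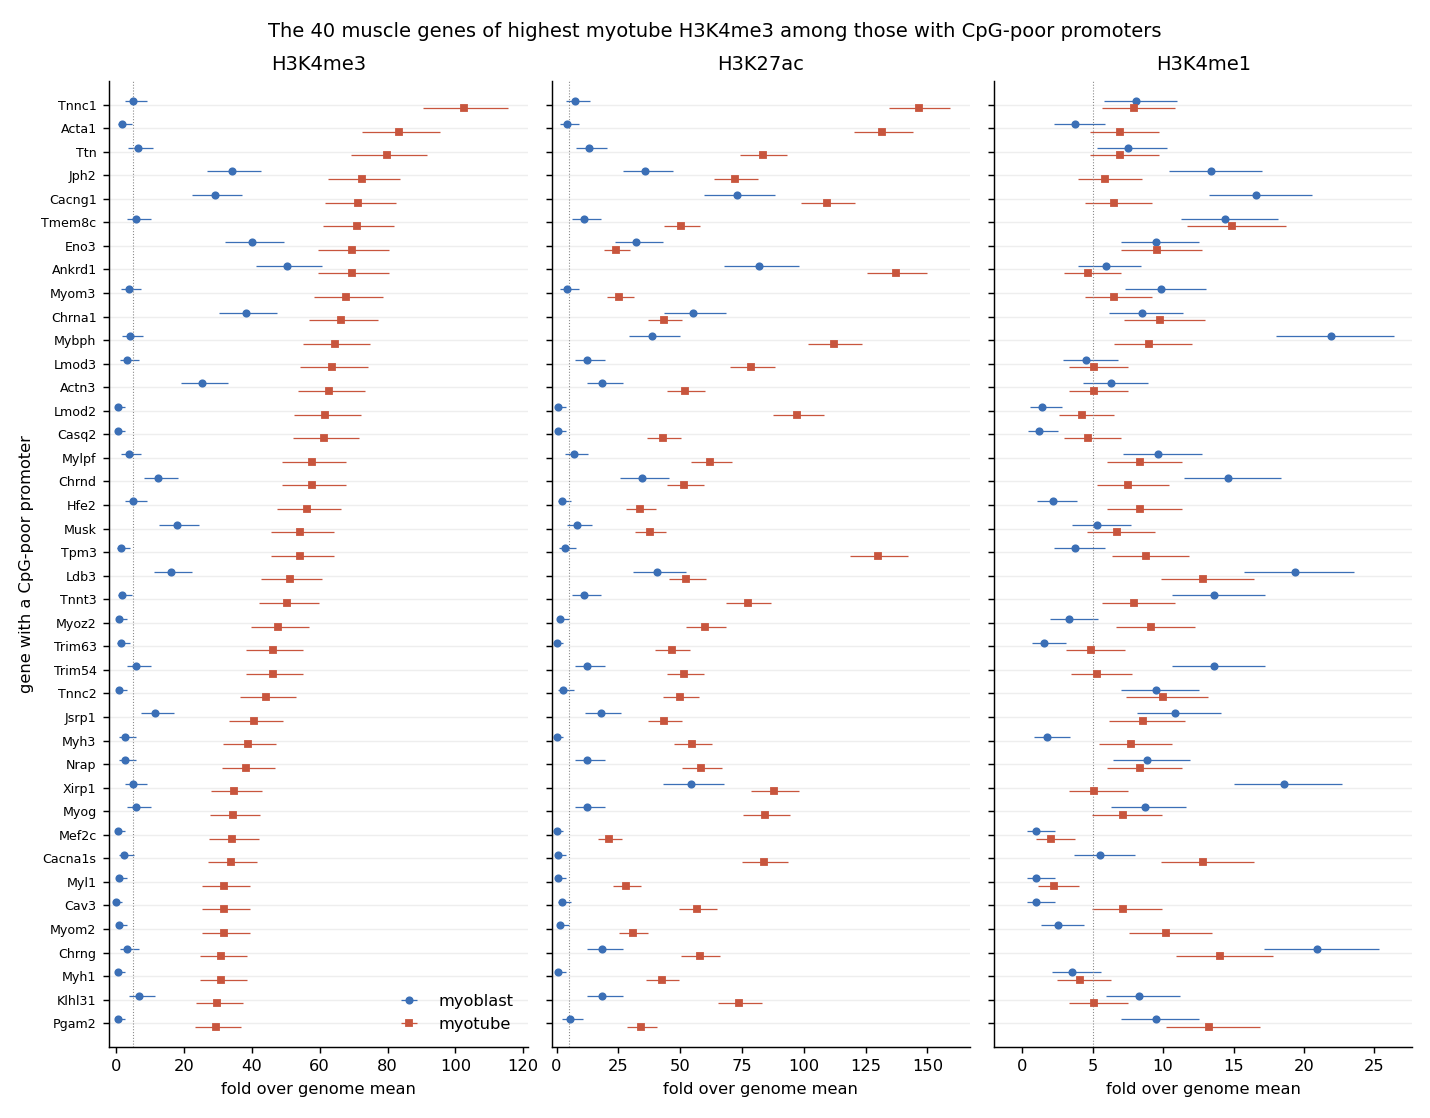
H3K4me3, H3K27ac and H3K4me1 (fold over the genome mean, horizontal) at the 40 muscle genes with CpG-poor promoters of highest myotube H3K4me3, in myoblasts (circles) and myotubes (squares). Bars are exact Poisson intervals (95%) and cover counting error only, and dotted lines mark 5-fold. The genes were chosen by their myotube H3K4me3, so the position of those squares follows from the choice. In Mybph H3K4me1 was 21.9-fold in myoblasts and 8.97-fold in myotubes.

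Of the 5 largest rises of H3K4me3, 4 were at muscle list promoters (Casq2, Cav3, Lmod2 and Mef2c) and the other at Hephl1. Art1, an ADP-ribosyltransferase of the cell surface, had 0 H3K27ac reads in myoblasts and 334 in myotubes, and 3 and 125 H3K4me3 reads. Hephl1, a copper-dependent ferroxidase, went from 1 to 92 H3K4me3 reads. Klhl30 was active in both cell types and rose from 29.5-fold to 73.7-fold, a ratio of 2.94 (2.23 to 4.01). Dusp27 went from 14.3-fold to 48.9-fold H3K4me3 and from 26.8-fold to 92.3-fold H3K27ac.

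Of the 59 promoters with lower H3K4me3, 48 (81.4%) were in none of the gene lists, as were 6179 of all 8469 CpG-poor promoters. Plaur fell from 69 to 10 reads, or from 31.8-fold (24.8 to 40.3) to 3.88-fold (1.86 to 7.13), and its H3K27ac from 100 to 24 reads, a ratio of 0.171 (0.101 to 0.260). Has1, a synthase of the matrix sugar hyaluronan, fell from 49 to 3 reads. Col6a3, a chain of collagen VI, fell from 45 to 3. Ly6a, the surface antigen Sca-1, fell from 24 reads to 0, which allows up to 3.

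Col3a1 fell from 78 to 17 H3K4me3 reads, or from 36-fold (28.4 to 44.9) to 6.59-fold (3.84 to 10.6), and the H3K36me3 over its body was 8.09-fold and then 1.61-fold. Its H3K27ac was 8.95-fold in myoblasts, and the ratio of 0.541 (0.208 to 1.31) did not pass. Of 18 CpG-poor collagen promoters 4 (22.2%) were active in myoblasts and 1 (5.56%) in myotubes, against 4.95% and 5.57% of all CpG-poor promoters. With enough reads at 4 of them, H3K4me3 was lower at 2 and higher at 0 (lower at 8.79% of CpG-poor promoters with enough reads). Cxcr7, a chemokine receptor, showed the marks moving apart: H3K4me3 fell from 37.4-fold to 13.6-fold (ratio 0.439, interval 0.282 to 0.650), and H3K27ac was 12.4-fold and 20.3-fold (ratio 2.76, 1.70 to 5.10).

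Of the 5 largest falls of H3K27ac, 3 lay at starts without marked H3K4me3 in either cell type. Hrct1 went from 137 to 31 H3K27ac reads (94.3-fold to 8.39-fold) with 3 and 6 H3K4me3 reads, and its H3K4me1 was 48.0-fold and 8.36-fold. Cyb561, a cytochrome of membranes, went from 25 to 5 H3K27ac reads with 4 H3K4me3 reads in each library, and its H3K4me1 was 28.4-fold and 5.91-fold. Itgb7, a leukocyte integrin chain, had the most H3K4me1 of any CpG-poor promoter in myoblasts, at 57.3-fold, with 70.2-fold H3K27ac and 8.76-fold H3K4me3.

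Some CpG-poor promoters active in both cell types were highly marked in both. Lgals1, which encodes a secreted galectin, had 238 and 225 H3K4me3 reads, or 109.8-fold (96.3 to 125) and 87.3-fold (76.2 to 99.5), a ratio of 0.946 (0.784 to 1.14). Actb, the gene of cytoplasmic β-actin, whose promoter is CpG-rich, had 113 and 120 reads and was at 52.1-fold and 46.5-fold. It is 1 example, and the highest level of any CpG-rich promoter was 150-fold in myoblasts and 115-fold in myotubes. Cd44, the hyaluronan receptor, was at 71.9-fold and 49.3-fold. Angptl2, a secreted angiopoietin-like factor, was at 76.1-fold and 41.5-fold, and its H3K27ac of 208-fold was the highest of the CpG-poor promoters in myoblasts. S100a4, a calcium-binding protein of motile cells, was below Actb in both, at 46.6-fold and 26-fold. Runx1, a transcription factor, here at a TSS without a CpG-rich one within 2 kb, had 54.0-fold and 78.7-fold H3K4me3, and its H3K27ac ratio was 4.05 (3.20 to 5.31).

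**Figure D5:**
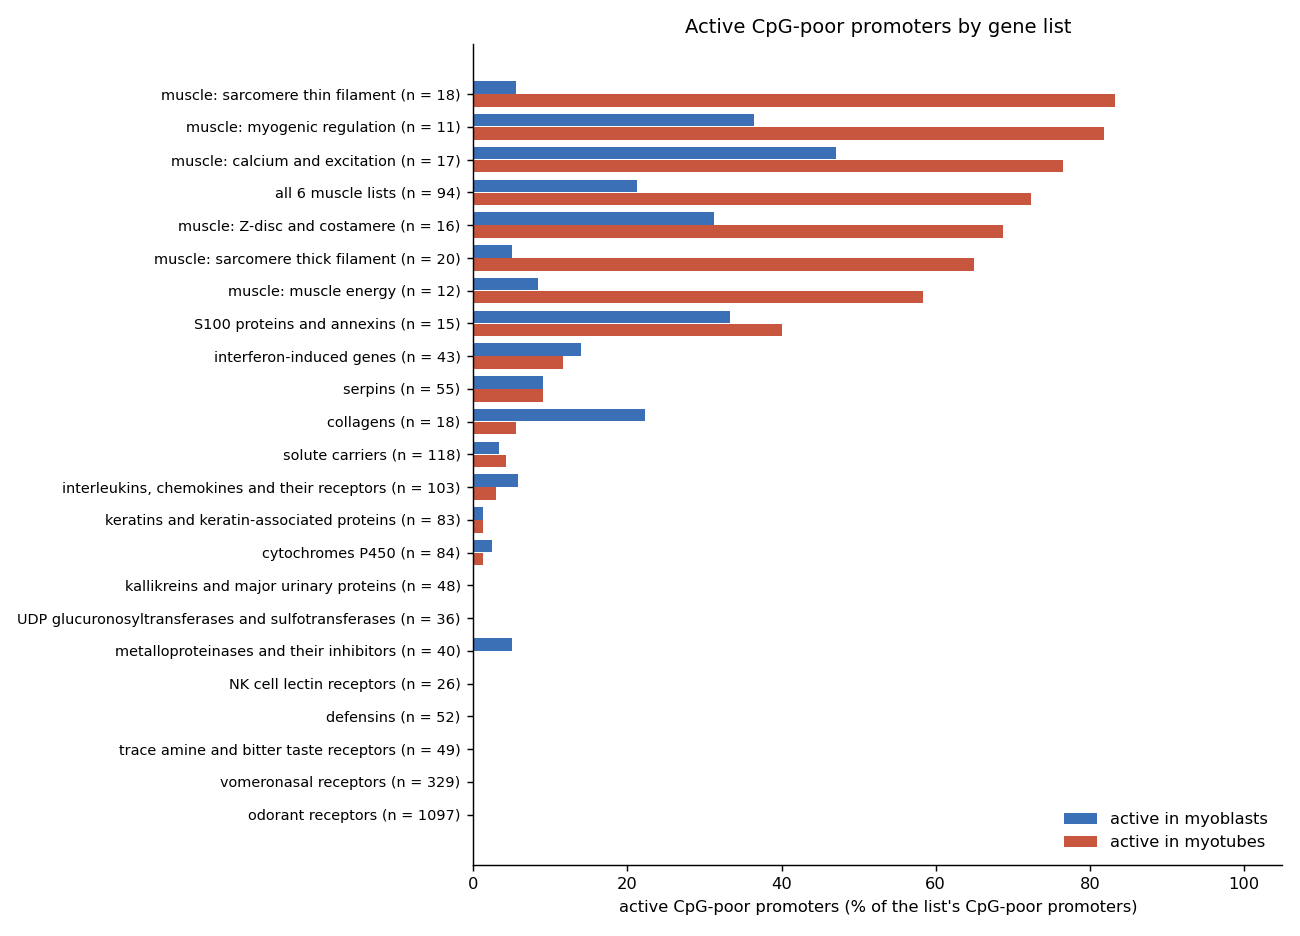
Active CpG-poor promoters as a percent of the CpG-poor promoters of each gene list (horizontal bars), in myoblasts (blue) and myotubes (red), with the number of CpG-poor promoters beside each name. The 6 muscle lists reach 58.3% to 83.3% in myotubes, and 7 other lists have no active promoter in either cell type.

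Receptor families of other tissues had no active promoter. Odorant receptors had 1097 CpG-poor promoters of 1106, vomeronasal receptors 329 of 330 and trace amine and bitter taste receptors 49 of 50, and none was active in either cell type. The highest H3K4me3 of an odorant receptor was 3.69-fold, at Olfr1356 in myoblasts. The aligned reads are unique ones, and 81 vomeronasal promoters had no read in any of the 12 libraries, so copies of near-identical sequence are not measured well here. Together they were 1475 (18.7%) of the 7872 CpG-poor promoters active in neither cell type. None of the lists held 5692 (72.3%) of the 7872, nor 6179 of all 8469 CpG-poor promoters. Without these 3 families 5.99% of 6994 CpG-poor promoters were active in myoblasts and 6.75% in myotubes. Defensins (52 CpG-poor promoters), NK cell lectin receptors (26), UDP glucuronosyltransferases and sulfotransferases (36) and kallikreins and major urinary proteins (48) also had none active.

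Other families held a few active members, to be read beside the 4.95% and 5.57% of all CpG-poor promoters that were active in myoblasts and myotubes. Several were near those shares. Interleukins, chemokines and their receptors had 6 (5.83%) and 3 (2.91%) of 103 active. Only 7 had enough reads, and H3K4me3 was lower at 3 and higher at 0 of these (lower at 8.79% of CpG-poor promoters with enough reads). Solute carriers had 4 (3.39%) and 5 (4.24%) of 118, and metalloproteinases and their inhibitors 2 (5%) and 0 of 40. Of 84 cytochromes P450, which oxidise steroids and drugs, 2 (2.38%) were active in myoblasts and 1 (1.19%) in myotubes. Of 83 keratin promoters 1 (1.20%) was active in both cell types, Krt80, at 22.6-fold and 12.8-fold H3K4me3. The shares were higher for S100 proteins and annexins, which bind calcium (5 and 6 of 15, or 33.3% and 40%), interferon-induced genes (6 and 5 of 43, or 14% and 11.6%) and serpins, which inhibit proteases (5 of 55, or 9.09%, in each). The 6179 promoters in none of the lists had 364 (5.89%) active in myoblasts and 377 (6.10%) in myotubes, near the shares of all CpG-poor promoters. Most active CpG-poor promoters thus lay outside the lists, as did most of the 8469 CpG-poor promoters.

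H3K27me3 at CpG-poor promoters was low, with a highest level of 13.9-fold in myoblasts against 37.2-fold at CpG-rich ones. Of the 227 marked in myoblasts 74 were also marked in myotubes, against 56 of 454 CpG-rich ones. In myotubes the mark was at 1.77% of all CpG-poor and 0.633% of all CpG-rich promoters. Seen from myotubes the order was the other way, with 74 of 150 CpG-poor and 56 of 63 CpG-rich promoters also marked in myoblasts. None of the 227 was active in myoblasts, where 4.95% of all CpG-poor promoters were, and 2 were active in myotubes, 1 of them Acta1. H3K4me3 was marked in myoblasts at 3 (1.32%) of the 227, against 6.16% of all CpG-poor promoters. It was marked at 46 (10.1%) of the 454 CpG-rich ones, against 84.5% of all CpG-rich promoters. The highest level was at Krt78, with 76 reads (13.9-fold) in myoblasts and 40 (10.2-fold) in myotubes. Pyy, a gut peptide hormone, was at 11.1-fold and 6.89-fold, and Alox8, a lipoxygenase, at 10.4-fold and 7.14-fold. Lrg1 was at 7.47-fold and 8.67-fold and Fmod, a small matrix proteoglycan, at 4.19-fold and 8.67-fold. The counts moved strongly with the threshold, to 870 and 819 CpG-poor promoters at 3-fold.

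H3K36me3 at a CpG-poor promoter often came with a start inside another gene. Of the 256 promoters marked in myoblasts 95 (37.1%) lay within another gene, and 103 of 287 (35.9%) in myotubes, against 8.40% of all CpG-poor promoters. Mrps24, a mitochondrial ribosomal protein gene, had 18.2-fold and 23.1-fold H3K36me3 at this TSS and at most 1.38-fold H3K4me3. Gzmm, a granzyme of lymphocytes, had 17.6-fold and 30.2-fold.

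Active CpG-poor promoters were less poor in CpG than the others. Those active in both cell types had a median ratio of 0.292 and 19 CpGs, those active in neither 0.177 and 9. The 216 with higher H3K4me3 in myotubes lay between, at 0.244 and 15 CpGs, and the 59 with lower H3K4me3 at 0.280 and 19. Among the promoters nearest the limit, Rhoj, with a ratio just below 0.4, was active in both cell types (26.7-fold and 17.1-fold H3K4me3), and Cplx3 and Rbpjl, also below the limit, were not. Cacng3, Rps2-ps5 and Prss38, just at or above it, had at most 0.461-fold.

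Short motifs were counted from 250 bases before to 50 after each TSS, on both strands. A match says only that the letters are there. CAGCTG, an E-box of the kind bound by the myogenic bHLH factors, was in 86 (39.8%) of the 216 CpG-poor promoters with higher H3K4me3, in 15 (25.4%) of the 59 with lower and in 89 (30.3%) of the 294 active in both. It was in 17.4% of CpG-poor, 12.8% of CpG-rich and 15.2% of all promoters, and in 45 (47.9%) of the 94 muscle promoters. The MEF2 site was in 34 (15.7%) of the 216, 2 (3.39%) of the 59, 8 (2.72%) of the 294, 5.21% of CpG-poor and 3.10% of all promoters, and in 24 (25.5%) of the 94. The CArG box, bound by serum response factor, was in 9 (4.17%) of the 216, 0 of the 59, 7 (2.38%) of the 294 and 1.39% of all promoters. At least 1 of these 3 was in 115 (53.2%) of the 216, 100 (34%) of the 294 active in both and 19% of all promoters. In the 170 CpG-rich promoters with higher H3K4me3, CAGCTG was in 18.8% and the MEF2 site in 2.35%. The counts carry no test, and GC content differs between these groups (51.6% in the 216 and 45.6% in CpG-poor promoters active in neither).

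The AP-1 motif TGANTCA was in 10 (16.9%) of the 59 promoters with lower H3K4me3, 45 (15.3%) of the 294 active in both, 27 (12.5%) of the 216, 11.2% of CpG-poor and 6.93% of all promoters. A TATAAA on the gene's strand 40 to 20 bases before the TSS was in 400 (4.72%) of CpG-poor, 0.774% of CpG-rich and 2.42% of all promoters. It was in 12 (5.56%) of the 216 and 4 (6.78%) of the 59, and in 7 (2.38%) of the 294. A MEF2 site can hold TATAAA within it, and 14 of the 216 had both somewhere in the window.

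The matches below are from promoters named above, with the motif in capitals and the gene's strand read 5′ to 3′ in mm9. They are the CArG box and the TATAAA of Acta1 (97 and 31 bases before the TSS, chr8:126418727-126418760 and chr8:126418665-126418694, minus strand), the CAGCTG of Mylpf (51 bases before, chr7:134355059-134355088, plus strand) and the MEF2 site of Casq2 (69 bases before, chr3:101890257-101890290, plus strand). The next 3 are the MEF2 sites of the neighbouring genes Myh1, Myh4 and Myh8 on the plus strand of chromosome 11 (161, 182 and 99 bases before, chr11:67013381-67013414, chr11:67051120-67051153 and chr11:67090515-67090548). The last is the AP-1 motif of Plaur (86 bases before, chr7:25247421-25247451, plus strand).
Acta1 CArG box: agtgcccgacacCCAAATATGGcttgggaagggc
Acta1 TATAAA: ctcccgggactaTATAAAaacctgtgcaag
Mylpf CAGCTG: cttcctgggctcCAGCTGctgcaggcctcc
Casq2 MEF2 site: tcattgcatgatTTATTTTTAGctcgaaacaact
Myh1 MEF2 site: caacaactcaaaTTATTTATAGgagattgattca
Myh4 MEF2 site: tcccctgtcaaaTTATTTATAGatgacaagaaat
Myh8 MEF2 site: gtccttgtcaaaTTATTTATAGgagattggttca
Plaur TGANTCA: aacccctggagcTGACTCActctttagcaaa
The 3 myosin promoters hold the same 10 letters, while their H3K4me3 in myotubes was 31.0-fold at Myh1 and 7.76-fold at Myh4 and Myh8.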

How the data were processed

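Each of the 12 libraries was deposited by the authors as 1 line per uniquely aligned read of 34 bp, used here as a count of 1, after alignment to mm9 with Mosaik. The H3K4me3 peaks carry the score that MACS gave them when the authors called them in each library, and only their positions were used. The peak lists of the other marks were not used. Those of the myoblast H3K27me3 and H3K27ac samples carry each other's mark in their names, while the read files carry the mark of their labels. By these reads 46% of all promoters were marked in the myoblast library labelled H3K27ac and 4.12% in the one labelled H3K27me3, and in myotubes 40.8% and 1.22%. The MACS settings, any removal of duplicates and the merging behind each file are not given in the sources used here. Reads at a position already taken on that strand made up 0.417% to 3.14% of a library and were kept.

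Genes and starts came from GENCODE M1, and CpG ratios and sequences from the mm9 genome. Of 21418 genes, 2 were left out for unknown bases. Reads on chromosomes 1 to 19 and X were extended to 150 bp and their midpoints counted 1 kb either side of the TSS. Fold is that count over the mean of the library. Ratios add 1 read to each library. Intervals are exact Poisson for a fold and exact conditional binomial for a ratio, at 95%, and cover counting error only, since PCR copies are not independent molecules. Where no read was found, up to 3 reads remain possible.

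Muscle and family lists, thresholds and the rule for named promoters were chosen with earlier results of these data known. The rule took the muscle lists, the 10 highest by H3K4me3 in each cell type, the 5 largest rises and falls of H3K4me3 and H3K27ac, the 5 highest by H3K27me3, the 3 highest by the other marks, the 3 nearest the CpG limit on each side, the highest member of each family and 7 comparison genes. Alternatives are described with the results that depend on the processing. Scripts were tested on simulated data. A few named items are not reported here. The tools were matplotlib 3.10.9, pysam 0.24.0, scipy 1.17.1, pandas 2.3.3 and numpy 2.4.6 under Python 3.11.15.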

Additional observations from a re-analysis of the deposited data

How the results depend on the processing

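Every count of the report's main comparisons was recomputed under the alternatives, 136 values in all, and 114 stayed within 1.5 times. Active CpG-poor promoters numbered 240 in myoblasts and 291 in myotubes at 10-fold, 222 and 291 with a ratio below 0.3, and 665 in myoblasts by H3K27ac alone. Active CpG-rich promoters numbered 2358 and 2037 when none had another CpG-rich TSS within 2 kb, which leaves fewer promoters. H3K27me3 marked 870 CpG-poor promoters in myoblasts and 819 in myotubes at 3-fold, 4 and 1 at 10-fold, 82 and 66 over a local background of 200 kb, and 253 in myotubes within 500 bp of the TSS. Lower H3K4me3 was called at 20 within 500 bp, 38 with libraries thinned to the smallest, 34 with a ratio below 0.3 and 27 with at least 40 reads. Lower H3K27ac was called at 44 within 500 bp, 51 with thinned libraries, 39 with at least 40 reads and 208 by total reads. Of 693 ratios recomputed for 99 named promoters, 672 stayed within the interval of the reported ratio, 20 moved in the same direction, and 1 reversed: the H3K4me3 ratio of Tpm3 was 0.798 when each gene was given its start of highest H3K4me3. With that choice 6371 genes had another start, 8246 promoters were CpG-poor, and 449 of them were active in myoblasts and 522 in myotubes. Where no value shows it, the cause of a move was not tested.

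No paired analysis was possible because each mark has 1 library per cell type. With 1 library no difference between conditions was tested, and the 5-fold level of the smallest library, H3K27ac in myoblasts, rests on 7.27 reads. No input library was used here, so copy number and chromatin shearing in this line were not measured. Only uniquely aligned reads were counted, and 554 CpG-poor promoters had no read in any library. A promoter here is 1 annotated start, and 483 of the CpG-poor genes have a CpG-rich TSS elsewhere.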

Other observations

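H3K27ac without H3K4me3 was much more frequent at CpG-poor than at CpG-rich promoters. It was found at 246 CpG-poor promoters in myoblasts and 212 in myotubes, which is 32.0% and 25.5% of those marked by either, and at 46 and 36 CpG-rich ones (0.544% and 0.433%). The 246 had a median of 8.26-fold H3K27ac, 1.84-fold H3K4me3 and 11.7-fold H3K4me1. H3K4me1 was marked at 215 (87.4%), against 11.1% of all CpG-poor promoters. In myoblasts the 5-fold level rests on 7.27 reads for H3K27ac and 10.8 for H3K4me3. Of the 246, 60 were active in myotubes (5.57% of all CpG-poor promoters were), and H3K27ac was marked there at 131 (8.08% of all CpG-poor promoters). Of the 212 in myotubes, 33 were active in myoblasts (4.95% of all CpG-poor promoters were), and H3K27ac was marked there at 104 (7.85% of all CpG-poor promoters).

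Some genes counted as CpG-poor have a second, CpG-rich start. Of the 483 such genes, the CpG-rich TSS was active in 354 (73.3%) in myoblasts and 321 (66.5%) in myotubes, while the CpG-poor 5'-most TSS was active in 76 and 86. Both were active in 74 and 81. Gapdh, a glycolytic enzyme gene, is an example: its 5'-most TSS has a ratio of 0.286, lies within 2 kb of a CpG-rich one, and was at 40.6-fold and 19.5-fold H3K27ac.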
